A study of Rattus norvegicus with 96 samples.

Results

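Arrdc3 (ENSRNOG00000045649), Egr1 (ENSRNOG00000019422), Spry4 (ENSRNOG00000013851) and Gprc5c (ENSRNOG00000003144) are 4 of the 32883 genes listed in each of 4 count tables of rats fed whole egg or casein. They were taken as a set because each stood out between the diets in 1 table: Arrdc3 and Spry4 in the table labelled prefrontal cortex (PFC), and Egr1 and Gprc5c in the table labelled liver. The genes were thus chosen by their egg and casein levels in those contrasts, which are given here as a description with no test. The other tables were not used in the choice.
The egg group was 6 male Sprague Dawley rats on a whole egg-based diet (rats 2, 4, 5, 8, 10 and 12), and the casein group was 6 on a casein-based diet of the same protein content (rats 1, 3, 6, 7, 9 and 11). All 12 ate their diet for 2 weeks and were 9 weeks old and fasted overnight when tissues were taken. Messenger RNA of PFC, epididymal visceral fat (VAT), liver and kidney of each rat was sequenced from the 3′ end of transcripts, which gave 48 libraries with 941980 to 7105361 counts in genes, the shallowest in the VAT-labelled table. The sample labels do not state the diet, which was read from the headings of the count columns. Each rat is 1 replicate, and p-values between diets measure the spread between rats. Between tables, the main fit took the 4 libraries of a rat as independent.

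Arrdc3 is an α-arrestin, an adaptor that brings NEDD4-family ubiquitin ligases to membrane receptors such as the β2-adrenergic receptor and so takes part in their removal from the cell surface. Egr1 is a zinc finger transcription factor of the immediate-early class: growth factors and other stimuli induce it quickly through the ERK kinases and serum response factor, which binds CArG boxes. Spry4 is a Sprouty protein, itself induced by receptor tyrosine kinase signalling, that restrains the ERK pathway in return. Gprc5c is an orphan receptor of the GPRC5 group within the class C G protein-coupled family, and it is the GPRC5 group that is known for induction by retinoic acid.

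The sequence before the start of Egr1 is shown because this gene is a textbook case of an immediate-early promoter. It is the 250 bases before the RefSeq start in GRCr8, chr18:26736828-26737077, plus strand, with CArG boxes and cyclic AMP response element half-sites in capitals.
Egr1 promoter: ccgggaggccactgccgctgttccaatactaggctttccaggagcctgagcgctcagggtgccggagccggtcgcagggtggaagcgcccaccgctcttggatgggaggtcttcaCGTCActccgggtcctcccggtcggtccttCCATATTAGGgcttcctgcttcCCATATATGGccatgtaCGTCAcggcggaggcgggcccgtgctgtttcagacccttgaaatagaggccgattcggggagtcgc
The window held 2 CArG boxes, starting 105 and 83 bases before the start, and 2 half-sites (TGACG, here read on the other strand), 135 and 66 bases before it. Searched on both strands over 33469 RefSeq promoters of the same 250 bases, a CArG box was found in 501 and a half-site in 6097 (18.2%). The EGR site GCGNGGGCG, found in 4.29% of promoters, and TATAAA, found in 12.9%, had no match before Egr1. Spry4 and Arrdc3, the other genes with an entry, had no match to any of these 4 motifs in their 250 bases. A match describes letters and is not a site shown to be used.
The microRNA that the study names as a predicted regulator of Arrdc3 is miR-10b-5p. It is shown with its seed, bases 2 to 8, in capitals, from RefSeq (GRCr8, chr3:80035886-80035907, plus strand).
rno-miR-10b-5p: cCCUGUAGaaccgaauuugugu

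The tables are called by their labels here, since marker genes did not follow them. Cps1, a urea cycle enzyme of hepatocytes, had a median of 1828 CPM (a count divided by the TMM-scaled size of its library) over the 12 PFC-labelled libraries, against 9.49 to 28.8 in the others. The renal list (3 of 9 genes with a symbol: Aqp1, Slc12a3 and Slc13a2) had its highest summed median, 1254 CPM, in the VAT-labelled table. Ptgds, abundant in brain, had its highest median, 1291 CPM, in the kidney-labelled table, and Prelp, of connective tissue, its highest, 265.5 CPM, in the liver-labelled table. No fat marker had a symbol in the sources used here. Symbols came from the study's list of genes significant between egg and casein in some tissue. Each marker named is thus on that list, and its egg and casein values are a description only. Some liver-labelled libraries also stood apart. Genes high in the PFC-labelled table (median of at least 50 CPM) and nearly absent from the liver-labelled one (at most 1 CPM) reached 23.8% of their PFC-labelled level in rat 5, 8.61% in rat 4 and 8.43% in rat 3, with 3.16% in rat 9, 2.04% in rat 10 and 0.397 to 0.862% in the other rats. Genes picked by the same limits in the VAT-labelled table reached 17.3% in rat 12, against 0.348 to 0.860% in the other rats. For the liver-labelled table, fitted fold changes between diets and the named comparisons between tables are given with and without the libraries of rats 3, 4, 5 and 12. Its other results, such as correlations and the spread between rats, include these libraries unless stated. In bulk tissue, fewer cells of a type and less RNA per cell cannot be told apart.

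Arrdc3 was higher on egg in the PFC-labelled libraries, where it was chosen. In these libraries its level was 3.48 CPM in the lowest, 11.2 CPM in the median and 13.9 CPM in the highest of the egg rats, against 2.15, 4.01 and 6.03 CPM in the casein rats. Of the egg rats, 5 stood above every casein rat, and rat 2 lay inside the casein range, so the groups overlapped through that rat alone. The means were 10.2 ± 3.55 CPM on egg and 4.07 ± 1.67 CPM on casein (SD, n = 6 each), 2.51-fold higher on egg. Fitted by edgeR, egg over casein was 1.35 on the log2 scale (SE 0.339), and 1.43 without rats 2, 10 and 12, whose PFC-labelled libraries stood apart in earlier results. Raw counts were 7 to 72 on egg and 11 to 41 on casein, so each level rests on few reads.
Summed over the 3 renal markers, these libraries held 38.5 to 122 CPM on egg and 20.5 to 39.6 CPM on casein. Cps1 stood at 1290 to 2417 CPM on egg and 1283 to 1941 CPM on casein, and the 2 of 9 brain markers with a symbol, Ptgds and Ptprn, summed to 9.93 to 27.4 CPM on egg and 4.77 to 13.6 CPM on casein. None of these markers had a median of 0 there. These markers come from the study's list of genes that differed by diet, so their ranges are no independent check on the diets. Their part in the difference was not tested.

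Spry4 was the other gene chosen in the PFC-labelled table, at a much lower count. Its level there was 1.54 CPM in the lowest, 4.84 CPM in the median and 6.59 CPM in the highest egg rat, against 0.636, 1.14 and 1.68 CPM in the casein rats. All 6 egg rats stood above the casein median, with rats 5, 4 and 2 highest, and rat 12 was the 1 egg rat inside the casein range. The counts behind these levels were 5 to 40 on egg, 107 in all, and 3 to 10 on casein, 36 in all. Only 5 of the 12 libraries reached 10 counts, short of the 6 that the filter asks, so Spry4 was not in the fit across genes. With no filter its log2 fold change was 1.89 (SE 0.476).
Among the egg rats, rat 4 was second highest for both of these genes, while rat 12 had the highest Arrdc3 and the lowest Spry4, and rat 2 had the lowest Arrdc3 and the third highest Spry4.

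Egr1 was lower on egg in the liver-labelled libraries, where it was chosen. Its level was 49.7 CPM in the lowest, 90.1 CPM in the median and 166 CPM in the highest egg rat, against 109, 345.5 and 745 CPM in the casein rats. All 6 egg rats stood below the casein median. The groups overlapped because rat 12 was the highest on egg, while casein rats 9 and 1 were low, at 109 and 121 CPM. The means were 90.3 ± 42.5 CPM on egg and 371 ± 259 CPM on casein (SD, n = 6 each), and the spread was wide on both diets, with a coefficient of variation of 47.1% on egg and 69.7% on casein. The log2 fold change was -2.04 (SE 0.481). It was -1.60 without rats 3, 4 and 5, whose libraries held genes of the PFC-labelled table, -2.30 without rat 12, and -1.98 without all 4. Rat 3, with the highest Egr1 of the casein rats, and rats 4 and 5, with 95.5 and 50.4 CPM on egg, are thus on both sides of the difference.

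Gprc5c was higher on egg in the liver-labelled libraries, where it was chosen. Its level was 7.65 CPM in the lowest, 15.7 CPM in the median and 45.6 CPM in the highest egg rat, against 1.45, 3.32 and 8.13 CPM in the casein rats. All 6 egg rats stood above the casein median, and rat 8 was the 1 egg rat inside the casein range, below casein rat 7. The highest value, 45.6 CPM, came from rat 12, whose library held genes of the VAT-labelled table at 17.3% of their level there, and Gprc5c itself had its highest median in the VAT-labelled table. The log2 fold change was 2.12 (SE 0.482), 1.62 without rat 12 and 1.31 without rats 3, 4, 5 and 12. The means were 18.5 ± 13.9 CPM on egg and 4.16 ± 2.35 CPM on casein (SD, n = 6 each), from 300 counts on egg and 67 on casein. Without rat 12, the egg rats lay between 7.65 and 18.2 CPM.
In the liver-labelled table the renal markers summed to 250.4 to 1530 CPM on egg and 221 to 682 CPM on casein, nearly all of it Aqp1, which endothelium also expresses. Slc13a2, a transporter of the renal tubule, had a median of 0. Cps1 stood at 5.34 to 425 CPM on egg and 5.31 to 311 CPM on casein, and the 2 brain markers summed to 5.32 to 1459 CPM on egg and 7.59 to 13.9 CPM on casein. The high end was Ptgds, at up to 1454 CPM on egg. Ptprn stood at 0.939 to 6.59 CPM on egg and 1.63 to 5.55 CPM on casein. The part of these markers in the differences of Egr1 and Gprc5c was not tested.

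**Figure D1:**
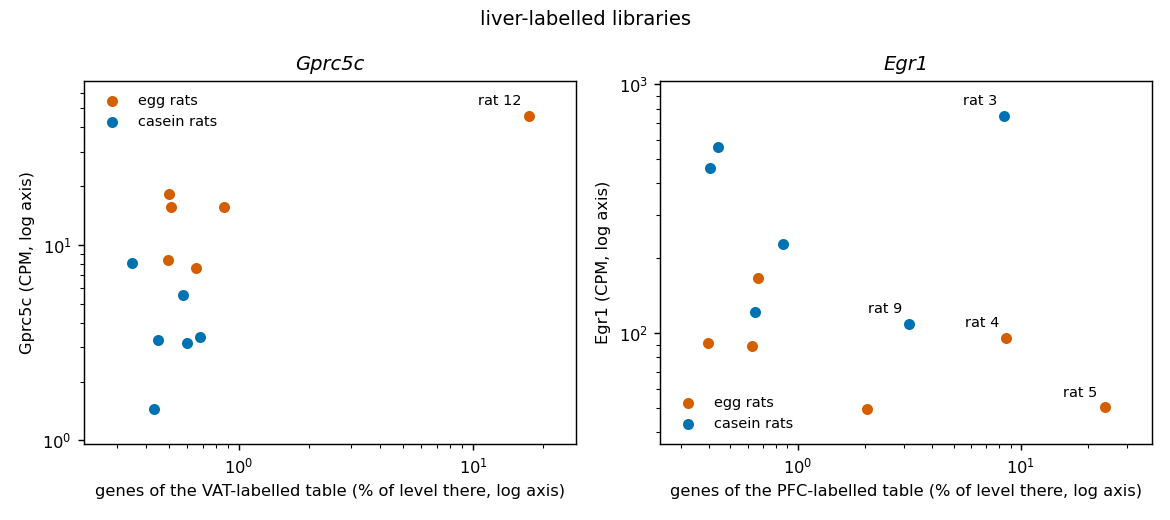
Each point is 1 liver-labelled library, with egg rats in orange and casein rats in blue, and both axes are logarithmic. The left panel sets Gprc5c (CPM) against the level of genes of the VAT-labelled table, in percent of their level there, and the right panel sets Egr1 (CPM) against the level of genes of the PFC-labelled table. Rat 12 stands alone at 17.3% with 45.6 CPM of Gprc5c. The other egg rats are at under 1% in the left panel. Of these, rats 4, 5 and 10 had 15.7, 15.7 and 18.2 CPM of Gprc5c, with genes of the PFC-labelled table at 8.61, 23.8 and 2.04%. Rats 2 and 8, at 0.626 and 0.397%, had 8.37 and 7.65 CPM, against at most 8.13 CPM on casein. Casein rats 3 and 9, at 8.43 and 3.16%, had 3.15 and 5.58 CPM. The part of either set of genes in the difference was not tested.

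Outside the contrasts that chose them, the 4 genes gave 6 contrasts with enough counts to test: Egr1 and Gprc5c in the PFC- and VAT-labelled tables, Spry4 in the liver-labelled table and Egr1 in the kidney-labelled table. In all, 9 of 16 combinations of gene and table passed the filter of at least 10 counts in at least 6 libraries, and 3 of those 9 had chosen their gene. By the quasi-likelihood test of edgeR, with p-values adjusted over all genes of a table after Benjamini and Hochberg (BH), 0 of the 6 passed an adjusted p of 0.05, 0 passed an unadjusted p of 0.05, and DESeq2 called 0 of them. In the whole tables edgeR called 0.0931% of genes in the PFC-labelled table, 0.0595% in the VAT-labelled table, and 0% in the liver- and kidney-labelled tables. An unadjusted p under 0.05 was reached by 4.07% of genes in the PFC-labelled, 5.01% in the VAT-labelled, 4.15% in the liver-labelled (362 genes) and 1.32% in the kidney-labelled table (127 genes). DESeq2 called 0.514% of genes in the PFC-labelled, 0.265% in the VAT-labelled, 0.0115% (1 gene) in the liver-labelled and 0% in the kidney-labelled table. The diets overlapped for the 4 genes in each table. Over all genes tested, they did not overlap for 0.535% in the PFC-labelled, 0.44% in the VAT-labelled, 0.172% in the liver-labelled and 0.0624% in the kidney-labelled table.

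Egr1 in the VAT-labelled table had 30.9 CPM in the lowest, 69.7 CPM in the median and 175 CPM in the highest egg rat, against 65.5, 101 and 216 CPM in the casein rats. Of the egg rats, 5 of 6 stood below the casein median, and rat 2 was the exception with the highest egg value. Egg over casein was -0.53 on the log2 scale (SE 0.341, adjusted p = 0.993 and unadjusted p = 0.134 by edgeR), which does not pass the test.
In the PFC-labelled table Egr1 had 24.5, 52.3 and 110 CPM in the lowest, median and highest egg rat, against 12.4, 39.6 and 93.2 CPM in the casein rats. The ranges lay over each other for 5 of 6 egg rats, and the log2 fold change was 0.25 (SE 0.411, adjusted p = 0.991 by edgeR). It was -0.06 without rats 2, 10 and 12 and -0.03 without rat 12 alone, so its direction rested on that library.
In the kidney-labelled table Egr1 had 198, 282 and 355 CPM in the lowest, median and highest egg rat, against 129, 260.7 and 383 CPM in the casein rats. The egg values all lay within the casein range, where casein rat 9 was the low one. The log2 fold change was 0.12 (SE 0.204, adjusted p = 1.000 by edgeR) and -0.02 without rat 9. Whether the diet effect on Egr1 differed between the tables was not tested.

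Gprc5c in the PFC-labelled table had 43.6, 52.6 and 101 CPM in the lowest, median and highest egg rat, against 35.8, 56.4 and 63.4 CPM in the casein rats. Rat 12 was the high one again, and the other egg rats lay close to the casein rats. The log2 fold change was 0.17 (SE 0.222, adjusted p = 0.991 by edgeR) and -0.04 without rat 12.
In the VAT-labelled table, where the gene was most abundant, it had 30.4, 102 and 144 CPM in the lowest, median and highest egg rat, against 95.0, 110 and 133 CPM in the casein rats. The casein rats were close together (coefficient of variation 13.1%) and the egg rats spread on both sides of them (45.5%), with rats 4 and 10 low and rats 2 and 5 high. On the log2 scale egg over casein was -0.17 (SE 0.287, adjusted p = 0.993 by edgeR) and 0.05 without rats 4 and 9, whose VAT-labelled libraries stood apart in earlier results.
Spry4 in the liver-labelled table had 0, 12.1 and 23.6 CPM in the lowest, median and highest egg rat, against 6.25, 22.9 and 42.8 CPM in the casein rats. Rats 2 and 12, with 0 and 3 counts, were the low ones, and the other egg rats lay within the casein range. Egg over casein stood at -1.07 on the log2 scale (SE 0.755, adjusted p = 0.953 by edgeR), and -1.95 by limma-voom, which also did not call it. It was -0.83 without rat 12, -1.25 without rats 3, 4 and 5, and -0.88 without all 4.

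The remaining combinations held too few counts for the fit across genes, and Spry4 in the PFC-labelled table was described above. The other 6 were compared by an exact two-sided permutation test of the difference in mean CPM over all 924 splits of the rats, chosen after the counts were seen. Arrdc3 in the kidney-labelled table had 0.724, 1.30 and 2.53 CPM in the lowest, median and highest egg rat, against 0, 0.582 and 1.78 CPM in the casein rats. All 6 egg rats stood above the casein median, on 31 counts in egg and 14 in casein rats (exact permutation p = 0.0844). Spry4 in the VAT-labelled table averaged 1.42 ± 1.39 CPM on egg and 3.81 ± 2.91 CPM on casein, on 21 and 59 counts (SD, n = 6 each, exact permutation p = 0.0909). The other 4, Arrdc3 in the VAT- and liver-labelled and Spry4 and Gprc5c in the kidney-labelled table, had exact permutation p-values of 0.175 to 0.848. None of the 6 passed 0.05, before any adjustment for 6 tests.

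**Figure D2:**
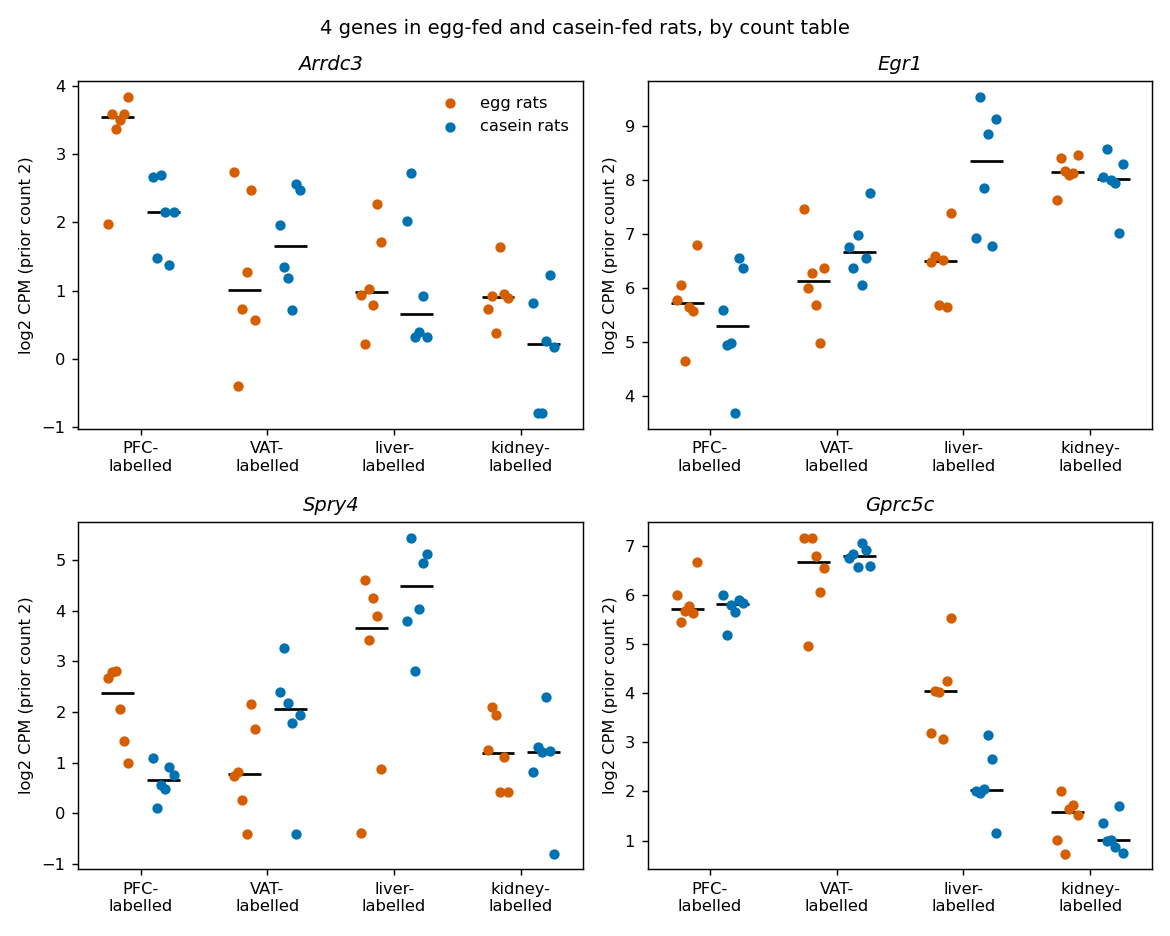
Each point is 1 rat, egg in orange at the left and casein in blue at the right within each table, on a log2 CPM axis with a prior count of 2, and black lines are medians of 6 rats. In the PFC-labelled table the diets are separated but for rat 2 in Arrdc3 and rat 12 in Spry4, and in the liver-labelled table Egr1 is lower and Gprc5c higher on egg, with 1 egg rat of each inside the casein range.

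**Figure D3:**
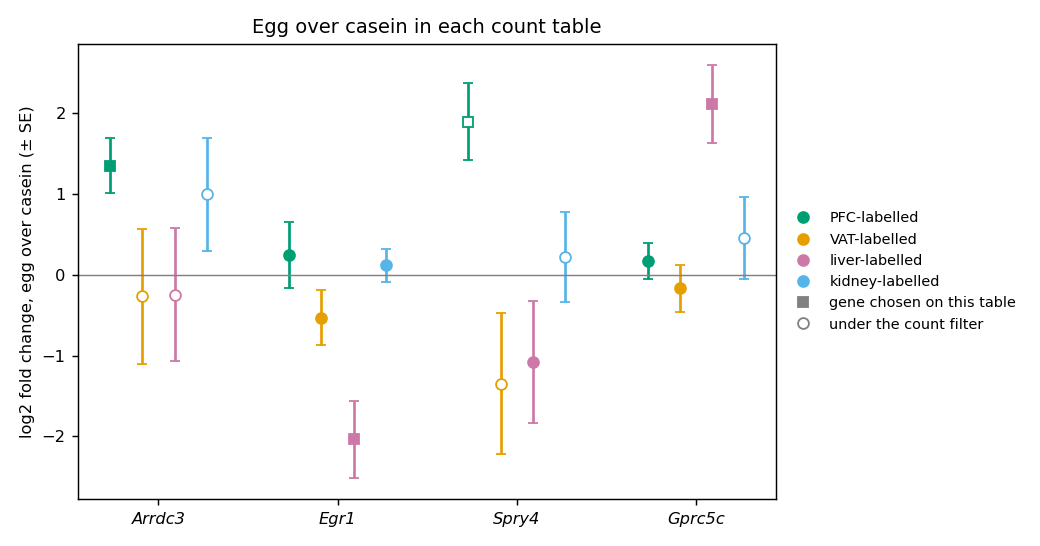
Points are log2 fold changes, egg over casein, with bars of 1 SE for each gene in each table. Squares mark the table that chose the gene and open symbols a gene under the count filter, fitted with no filter. Egr1 runs between -2.04 in the liver-labelled and 0.25 in the PFC-labelled table, and Gprc5c between -0.17 in the VAT-labelled and 2.12 in the liver-labelled table.

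Egr1, and Spry4 in the 1 table where it passed the filter, varied between rats of 1 diet more than most genes of like level. Beside the 200 genes closest in level, the biological coefficient of variation of Egr1 stood at percentile 96.0 in the PFC-labelled, 92.5 in the VAT-labelled, 93.0 in the liver-labelled and 81.5 in the kidney-labelled table. Spry4 in the liver-labelled table, at 90.0%, stood at percentile 98.5, with 0 counts in rat 2 and 3 in rat 12. Arrdc3 in the PFC-labelled table stood near the middle, at percentile 50.5, as did Gprc5c there, at 49.5, while Gprc5c stood at 67.0 in the VAT-labelled and 80.0 in the liver-labelled table.

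Levels differed between the tables. No gene was chosen on these differences, but the libraries that chose each gene are among those compared. For this comparison all 48 libraries were scaled together by TMM and fitted with diet as a covariate, so the CPM differ somewhat from those within a table. That fit took the 4 libraries of a rat as independent. It used the same diet term for all tables, so the diet difference that chose a gene enters its level in the table that chose it. Of 24 combinations of gene and pair of tables, 16 passed an adjusted p of 0.05 in edgeR, and with the rat as a block it was again 16. Single p-values changed with the block, as for Spry4 in VAT over liver, with an adjusted p of 0.000607 by edgeR with the block. Of all genes, edgeR called 56.4% between the PFC- and VAT-labelled tables, 61.8% between PFC and liver, 73.6% between PFC and kidney, 56.8% between VAT and liver, 66.9% between VAT and kidney and 70.7% between liver and kidney, so the share of the members is near the background and is no result about them.
Arrdc3 was highest in the PFC-labelled table, with a median of 8.27 CPM (range 3.19 to 20.0), followed by 1.82 CPM in the VAT-labelled, 0.970 CPM in the liver-labelled and 0.917 CPM in the kidney-labelled table. PFC-labelled over VAT-labelled libraries gave a log2 difference of 1.76 (SE 0.427, adjusted p = 0.000375 by edgeR, higher in 10 of 12 rats). This value includes the egg libraries that chose the gene. Scaled within each table, the PFC- and VAT-labelled medians were 11.2 and 1.28 CPM on egg, and 4.01 and 2.46 CPM on casein. The neighbours VAT and liver (adjusted p = 0.110) and liver and kidney (adjusted p = 0.114) did not pass.
Over both diets together, Egr1 was highest in the kidney-labelled table, with a median of 227 CPM (range 103 to 319). It was followed by 97.5 CPM in the liver-labelled, 87.4 CPM in the VAT-labelled and 66.2 CPM in the PFC-labelled table. The order of the first tables differed by diet. Scaled within each table, the liver- and kidney-labelled medians were 90.1 and 282 CPM on egg, but 345.5 and 260.7 CPM on casein. No pair of neighbours passed: liver over kidney gave a log2 difference of -0.42 (SE 0.356, adjusted p = 0.291), VAT over liver -0.80 (SE 0.354, adjusted p = 0.0511) and PFC over VAT -0.35 (SE 0.351, adjusted p = 0.406), all by edgeR. These calls depended on the method: limma-voom called the liver and kidney pair (adjusted p = 0.0435), DESeq2 the VAT and liver pair (adjusted p = 0.0365), and edgeR on library totals alone the VAT and liver (adjusted p = 0.0257) and the PFC and VAT pairs (adjusted p = 0.0348). PFC over kidney, the ends of the order, differed by -1.57 (SE 0.354, adjusted p = 0.000106 by edgeR).
Spry4 was highest in the liver-labelled table, with a median of 12.8 CPM (range 0 to 33.9), against 2.81 CPM in the VAT-labelled, 2.24 CPM in the PFC-labelled and 1.39 CPM in the kidney-labelled table. VAT over liver gave a log2 difference of -2.41 (SE 0.514, adjusted p = 6.89e-05 by edgeR), and the order among the lower tables was not resolved except for PFC over kidney, 1.37 (adjusted p = 0.0176), which limma-voom and scaling by library totals alone did not call. That pair includes the libraries that chose Spry4. Scaled within each table, its PFC- and kidney-labelled medians were 4.84 and 1.70 CPM on egg, but 1.14 and 1.75 CPM on casein.
Gprc5c had the widest range, with medians of 113 CPM in the VAT-labelled (range 29.3 to 152), 77.0 CPM in the PFC-labelled, 6.85 CPM in the liver-labelled and 1.39 CPM in the kidney-labelled table. PFC over VAT gave -0.48 (SE 0.255, adjusted p = 0.106) and did not pass, except on library totals alone (adjusted p = 0.00184 by edgeR). PFC over liver gave 3.20 (SE 0.289, adjusted p = 1.79e-14) and liver over kidney 2.42 (SE 0.328, adjusted p = 3.44e-09), higher in 12 of 12 rats in both, by edgeR. Without the liver-labelled libraries of rats 3, 4, 5 and 12, PFC over VAT was -0.47 with an adjusted p of 0.0426 by edgeR, PFC over liver was 3.74 and liver over kidney was 1.85. Leaving these libraries out changed no other call among the 24 combinations. For the other liver pairs named here it gave log2 differences of 1.05 for VAT over liver and 0.66 for liver over kidney in Arrdc3, -0.75 for VAT over liver and -0.44 for liver over kidney in Egr1, and -2.37 for VAT over liver in Spry4.

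**Figure D4:**
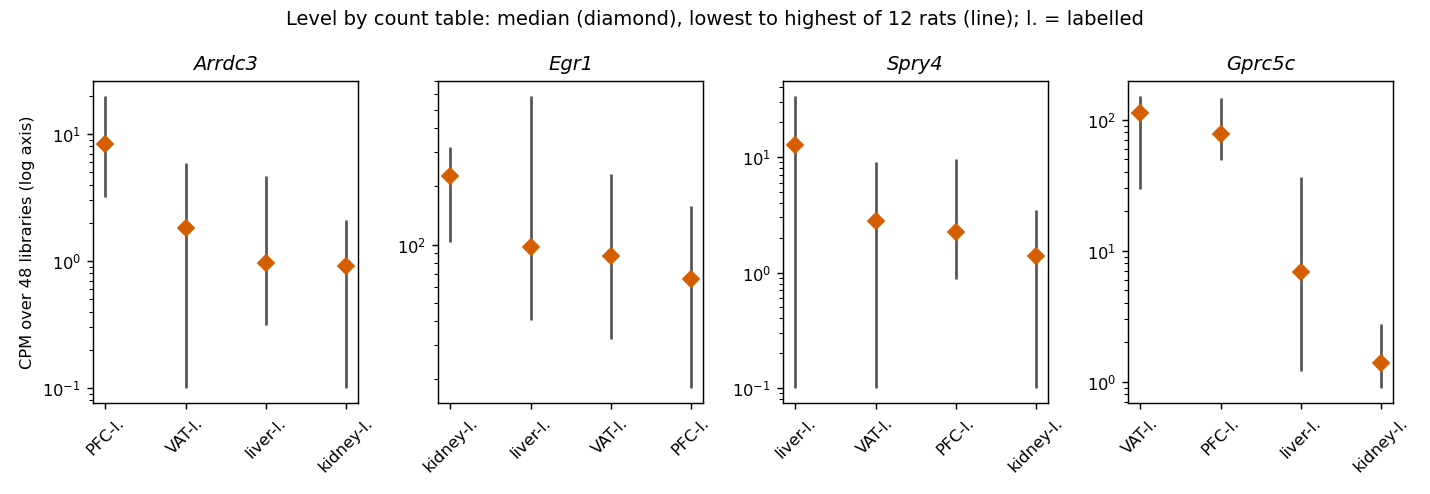
Diamonds are medians and lines the range of 12 rats in each table, in CPM on a log axis, with libraries at 0 drawn at 0.1. Tables run from the highest to the lowest median for each gene, and the order differs: Arrdc3 is highest in the PFC-labelled table at 8.27 CPM, Egr1 in the kidney-labelled at 227, Spry4 in the liver-labelled at 12.8 and Gprc5c in the VAT-labelled at 113.

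Genes that varied like them were looked for among those with a symbol, as a description over libraries that share depth and composition. The genes with a symbol are those the study listed as significant between the diets, so genes at large were not searched. Over the 48 libraries, 68 such genes were compared. Neither table nor diet means were removed there, so r also reflects differences in level between the tables. Gprc5c followed most closely Tkfc (r = 0.94), a kinase of triose metabolism, Xpnpep2 (r = 0.93), a peptidase of cell membranes, and Entpd5 (r = 0.91), a nucleotide-hydrolysing enzyme. Arrdc3 followed Reep3 (r = 0.80), Tmem205 (r = 0.77) and the fatty acid hydroxylase Cyp4a1 (r = 0.75). Egr1 had weaker likeness, to Snn (r = 0.51), Ptgds (r = 0.50) and Parm1 (r = 0.33), and Spry4 to the sterol regulator Insig1 (r = 0.61), Prelp (r = 0.60) and the cell cycle kinase Wee1 (r = 0.52).
Within the 12 libraries of the table that chose each gene, with the diet means removed, Egr1 was most like Wee1 (r = 0.83), Hdc (r = 0.79), which makes histamine, and Gstp1 (r = 0.73). Gprc5c was most like Ptgds (r = 0.69), Gstm2 (r = 0.68) and Reep3 (r = 0.65), with rat 12 far from the others in both Gprc5c and the level of genes of the VAT-labelled table. Arrdc3 was most like Ivd (r = 0.62), of leucine breakdown, an isocitrate dehydrogenase gene (r = 0.60) and Reep3 (r = 0.60), among 66 genes.

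Relations from rat to rat were computed where the genes passed the filter, which left out Arrdc3 with Spry4. Within each diet's deviations from its mean, 17 relations were computed over 12 rats, between the genes of a table, of 1 gene between tables, and of Arrdc3 with miR-10b-5p. None passed BH adjustment over the 17, by permutation test within diets (100000 permutations, two-sided).
The smallest p belonged to Egr1 between the liver- and kidney-labelled libraries of the same rats (r = 0.66, permutation p = 0.0314, adjusted p = 0.534; Spearman's rho = 0.63, permutation p = 0.0450). Leaving out the 2 rats farthest from the median gave r = 0.43 (permutation p = 0.315). Egr1 and Gprc5c in the PFC-labelled table were next (r = 0.51, permutation p = 0.0802, adjusted p = 0.682; rho = 0.59, permutation p = 0.0495), with r = 0.39 without the 2 farthest rats.
Arrdc3 and miR-10b-5p of the PFC tables gave r = -0.22 (permutation p = 0.526, adjusted p = 0.948) and rho = 0.00 (permutation p = 1.00), and r was 0.10 without the 2 farthest rats. Tables were paired by label, and markers did not follow the labels of the gene tables, so both may not hold the same tissue. With the microRNA of the VAT, liver and kidney tables, added after the data were seen, r was -0.13, -0.27 and -0.24 (permutation p = 0.715, 0.382 and 0.468). The microRNA itself had 7050, 15076 and 17208 CPM in the lowest, median and highest egg rat of its PFC table, against 3268, 19175 and 132540 CPM in the casein rats. Casein rat 9 was far above the next highest of all rats, at 21159 CPM, and the diets lay over each other.
Other genes of these pathways could not be set beside the members, since of 31 immediate-early genes, 19 genes of receptor tyrosine kinase feedback, 13 arrestin-related genes and 4 GPRC5 receptors, only the members themselves had a symbol in the sources used here.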

How the data were processed

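Large RNA was made into QuantSeq 3′ libraries. Per the study's methods, the authors aligned reads to the Ensembl rat genome, RNO version 6, with STAR v2.5.2 and deposited whole-number counts per gene. MicroRNA counts, deposited by the authors, came from smallrnaseq and Bowtie. Deposited egg against casein tables hold mean normalised counts, log2 fold changes and p-values and were not used. Symbols came from the study's list of genes significant between egg and casein, which named 73 genes, all in the count tables. The reference of GRCr8 genes held 0 of the gene IDs.
Genes that reached 10 counts in 6 or more of 12 libraries were scaled by TMM and tested with edgeR 4.0.16 (quasi-likelihood, robust; limma 3.58.1, DESeq2 1.42.0, R 4.3.3), BH adjusted over all genes at 0.05. Scripts were tested on simulated data. Correlations and figures used Python 3.11.15, numpy 2.4.6, pandas 2.3.3 and matplotlib 3.10.9, with log2 CPM at a prior count of 2.
The genes named are the 4 members, the 3 named genes most like each, the markers and the pathway lists. Members, lists and the rats left out were chosen with earlier results of these data known. Limiting correlations to combinations that passed the filter, and the 6 exact tests, were chosen after the data were seen. By the labels an animal number marks 1 rat in all tables. Between tables, its libraries' deviations from the diet means correlated over all genes with a median r of -0.0252 to 0.0942. Results for some marker genes are not reported here.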

Additional observations from a re-analysis of the deposited data

Results flagged for a closer look

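Of 32 groups of 6 rats (4 genes, 4 tables and 2 diets), 1 held a rat far from the others. In the PFC-labelled table, rat 2 was the lowest egg rat for Arrdc3 at 3.48 CPM, on 7 counts, against 9.88 to 13.9 CPM in the other egg rats. Its gap to the next rat was 0.747 of the group's range on the log2 scale, over the limit of 0.625 for 6 samples, which chance passes in about 1 of 20 groups. Without rat 2 the log2 fold change of Arrdc3 was 1.51.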

How the results depend on the processing

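Counts of the 4 genes called between diets were 0 in each table under edgeR with other size factors or filters, limma-voom, and with the rats that stood apart left out. Leaving out each rat in turn gave 0 to 0. DESeq2 called 1 in the PFC-labelled table, Arrdc3, and 1 in the liver-labelled table, Egr1, both on the contrast that chose the gene, so nothing is read from these calls or from the 0 of the other tools there. Between tables, 16 of 24 stayed 16 with the rat as a replicate block and were 16 to 18 under the other settings. Among single values, Gprc5c in the liver-labelled table moved to 1.31 without rats 3, 4, 5 and 12. Directions turned for values near 0 that no test called. Without rats 2, 10 and 12, Egr1 and Gprc5c in the PFC-labelled table were -0.061 and -0.11, and leaving out each rat in turn gave -0.031 (without rat 12) to 0.53 and -0.040 (without rat 12) to 0.25. Gprc5c in the VAT-labelled table was 0.054 without rats 4 and 9, and -0.31 to 0.026 (without rat 4) over single rats. Egr1 in the kidney-labelled table was -0.025 (without rat 9) to 0.25. The relation of Arrdc3 and miR-10b-5p went to 0.00 by Spearman and to 0.096 without 2 rats. The cause was not tested. The 7 combinations under the filter have no fitted value except with no filter, and their counts, at most 40 in a library, limit what can be seen. Asking for 10 counts in all 12 libraries dropped Arrdc3 in the PFC-labelled and Spry4 and Gprc5c in the liver-labelled table. No correlation passed under any alternative, including 3 microRNA relations added after the data were seen.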
